A study of Mus musculus with 2 samples.

Results

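The 7 mouse sirtuin genes, Sirt1 to Sirt7, were examined for binding of ELF1, a transcription factor of the ETS family. They were chosen by name, and all 7 were found among the 21317 protein-coding genes that could be placed with a strand on mouse genome build mm10. The data were ChIP-seq peak lists, in which a peak marks a place where DNA fragments brought down by an antibody against ELF1 pile up over a control. The cells were CH12.LX, an immortalised line from a mouse B-cell lymphoma of strain B10.H-2aH-4bp/Wts, with no treatment named in the labels. The study had 1 group of 2 biological replicates of this line and no second condition, so no difference between conditions could be tested. One cell line from 1 donor limits what the values say of B cells in the animal, and peak lists say nothing of transcript levels.

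Sirtuins are enzymes that use NAD to remove acetyl and longer acyl groups from lysines, so their activity follows the supply of NAD. Sirt1, Sirt6 and Sirt7 act mainly in the nucleus on histones and chromatin proteins, Sirt2 mainly in the cytosol on tubulin and other proteins, and Sirt3, Sirt4 and Sirt5 in mitochondria on metabolic enzymes. ETS factors bind DNA around a GGAA core, and ELF1 prefers CCGGAA and is abundant in lymphocytes.

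A summit, the highest point of a peak, was assigned to a promoter when it lay within 1 kb of a gene's start. In the optimal list, the 29086 peaks that the submitters derived from both replicates with a filter on reproducibility, 6 of the 7 sirtuin genes had a promoter summit at any start annotated in RefSeq, against 42.7% of all placed protein-coding genes. From the outer 5′ end of each gene alone, 5 of 7 sirtuin genes had one, against 39.5% of all genes. The gene that differed was Sirt4, whose outer annotated end lies 5967 bp upstream of the start that carries the peak. Sirt1 had no optimal peak. The promoter signals of the 6 bound genes ran from 32.4 at Sirt5 to 562 at Sirt7, a 17.3-fold range in the peak caller's own units, whose scale is not given. Their median was 194, against a median of 97.6 over all 9100 genes with a promoter peak, and 5 of the 6 lay above that value. These values take the strongest summit within 1 kb of a start. For Sirt2 this was a summit of 258 that lay 123 bp inside the neighbouring gene Nfkbib. The summit nearest the Sirt2 start had a signal of 81.6, below the median of all genes with a promoter peak.

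The sequences under these summits are shown for the genes the results turn on, 5′ to 3′ on the strand of the sirtuin gene, from RefSeq assembly GRCm38.p6 (mm10). Capitals mark every GGAA and its reverse complement TTCC, the core that ETS factors read. Sirt7 is shown as the promoter with the strongest peak (chr11:120624965-120625264, minus strand, the 250 bases before the start and 50 from it on), Sirt3 and Sirt6 as 101 bases centred on the summit (chr7:140882336-140882436 and chr10:81627542-81627642, both minus strand), Sirt2 and Sirt4 as promoters with a peak and other words (chr7:28766502-28766801, plus strand, and chr5:115484248-115484547, minus strand), and Sirt1 as the promoter with no optimal peak (chr10:63338986-63339285, minus strand).
Sirt7 promoter: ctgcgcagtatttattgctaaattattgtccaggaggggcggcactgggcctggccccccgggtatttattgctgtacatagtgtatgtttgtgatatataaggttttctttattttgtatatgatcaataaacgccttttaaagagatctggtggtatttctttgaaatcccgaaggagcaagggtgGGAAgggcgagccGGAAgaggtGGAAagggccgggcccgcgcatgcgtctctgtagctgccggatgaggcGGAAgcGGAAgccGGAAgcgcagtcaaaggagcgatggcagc
Sirt3 summit: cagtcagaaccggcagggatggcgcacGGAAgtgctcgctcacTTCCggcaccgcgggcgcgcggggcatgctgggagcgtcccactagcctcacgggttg
Sirt6 summit: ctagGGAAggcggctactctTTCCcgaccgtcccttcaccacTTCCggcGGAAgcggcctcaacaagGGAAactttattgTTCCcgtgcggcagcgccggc
Sirt4 promoter: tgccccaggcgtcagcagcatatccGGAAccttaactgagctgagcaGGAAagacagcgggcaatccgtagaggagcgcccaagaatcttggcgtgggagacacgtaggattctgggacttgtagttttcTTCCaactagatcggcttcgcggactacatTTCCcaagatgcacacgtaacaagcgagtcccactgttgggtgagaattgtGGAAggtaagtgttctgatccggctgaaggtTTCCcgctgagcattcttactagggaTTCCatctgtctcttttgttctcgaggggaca
Sirt2 promoter: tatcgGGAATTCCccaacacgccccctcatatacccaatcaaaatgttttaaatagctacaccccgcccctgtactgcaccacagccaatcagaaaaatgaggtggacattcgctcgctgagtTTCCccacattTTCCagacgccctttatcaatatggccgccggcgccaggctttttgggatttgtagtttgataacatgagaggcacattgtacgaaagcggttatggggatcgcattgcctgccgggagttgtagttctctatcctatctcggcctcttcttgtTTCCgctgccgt
Sirt1 promoter: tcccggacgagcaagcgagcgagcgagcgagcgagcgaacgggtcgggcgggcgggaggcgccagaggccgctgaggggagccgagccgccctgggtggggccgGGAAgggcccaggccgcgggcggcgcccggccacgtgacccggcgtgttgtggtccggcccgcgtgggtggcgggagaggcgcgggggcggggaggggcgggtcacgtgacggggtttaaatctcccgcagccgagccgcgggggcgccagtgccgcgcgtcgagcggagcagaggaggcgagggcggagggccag

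The longer ETS word CCGGAA stood in 4 of the 7 sirtuin genes' promoter sequences, those of Sirt3, Sirt4, Sirt6 and Sirt7, and in none of the sequences at Sirt1, Sirt2 and Sirt5. Counting bases from 0 at the start, Sirt7 held it at -51 to -46 and again at 19 to 24, on the coding strand. The second copy closes a run of 3 GGAA cores at 8 to 11, 14 to 17 and 21 to 24, and the optimal summit lay 7 bp after the start, beside this run. Sirt6 held CCGGAA at -34 to -29 and Sirt3 at -84 to -79, both on the opposite strand and both as part of the full word CCGGAAGT, with the optimal summits 26 and 77 bp upstream of the start. Sirt4 held it at -227 to -222, while its summit lay 164 bp upstream. Over 21045 RefSeq promoters of 300 bases, searched on both strands, CCGGAA occurred in 18.9%, in 35.9% of those with an optimal peak and in 6.92% of those without. CCGGAAGT occurred in 5.2% of them, and the bare core GGAA in 95.7%. A match is a string of letters and was not shown to be a bound site.

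Among the nuclear sirtuins, Sirt7, a deacetylase of the nucleolus and of histone H3, carried one of the strongest peaks of the whole list. Its promoter signal was 562 in the optimal list, 255 in replicate 1 and 308 in replicate 2. These signals ranked 14 among 29086 optimal peaks, 40 in replicate 1 and 2 in replicate 2. The peak spanned chr11:120624814-120625156, over the single annotated start at 120625014, and the replicates' summits were 6 bp apart. Both replicates therefore placed it at the start and near the top. In the mm9 list, a separate list of 18804 peaks from the same replicates on the older build, the Sirt7 summit had a signal of 2569 on that list's own scale, ranked 8, and lay 3 bp from the start. It fell in the annotated UTR of Sirt7 in GENCODE M1.

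Sirt6, which deacetylates histone H3 and takes part in DNA repair and glucose metabolism, had a moderate peak. Its signal was 121 in the optimal list, 52 in replicate 1 and 65.3 in replicate 2. It spanned chr10:81627410-81627773, and all 3 lists placed the summit on the same base, 26 bp upstream of the start at 81627566. The mm9 summit, with a signal of 168, also lay 26 bp upstream of the start of the same sequence. Thus Sirt6 had the most exactly repeated position of the family. RefSeq gives Sirt6 2 further starts, and the outermost lies 29 bp from a start of Ankrd24, a gene for an ankyrin repeat protein that runs the other way. The summit was 229 bp from that Ankrd24 start and inside the annotated span of Sirt6.

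Sirt1, the best known family member, a deacetylase of histones, p53 and other transcription regulators, had no optimal and no conservative peak within 20 kb of its start. The nearest optimal summit was 30196 bp away. The relaxed lists, which hold 300000 entries each and include background by design, did have an entry within 1 kb of the start in all 3 cases. The pooled entry had a signal of 20.3 and ranked 30850, just beyond the length of the optimal list, and lay 298 bp upstream of the start. Replicate 1 had a signal of 8.87, ranked 33660, 122 bp downstream of the start. Replicate 2 had a signal of 15.5, ranked 23820, 304 bp upstream. The replicates' summits were 426 bp apart, so they did not mark the same place by the limit of 100 bp used for a shared summit. Signal alone did not set Sirt1 apart, since 3547 optimal peaks (12.2%) had a signal below 20.3.

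The base composition of the Sirt1 promoter differed from that of the other sirtuins. Its 300 bases held 47 CpG dinucleotides, which put it at percentile 98.1 of all promoters, and 79% G or C. GGGCGG, the word of SP1 and KLF factors, stood in it 7 times and GGAA once. In the other sirtuin promoters GGGCGG stood at most 4 times, at the inner start of Sirt3. It occurred in 46.7% of all promoters, in 67.1% of those with an optimal peak and in 32.3% of those without. The other sirtuin promoters held 15 to 24 CpG. Among the 294 promoters with a CpG count within 2 of that of Sirt1, 56.8% had an optimal peak, against 41.3% of all promoters. A promoter this rich in CpG without a peak was thus not rare. For the other sirtuins' promoters the share at a CpG count within 2 of their own ran from 58.3% to 71.1%.

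Sirt2, a deacetylase of tubulin and of proteins of the cell cycle, had 2 summits in 1 promoter peak at chr7:28766394-28766733. The stronger summit had a signal of 258 in the optimal list, 119 in replicate 1 and 139 in replicate 2, and the weaker one 81.6, 22.3 and 53.3 in the same order. The stronger summit lay 231 bp upstream of the Sirt2 start and 123 bp inside Nfkbib, which encodes the NF-kB inhibitor IkB beta and starts 108 bp from Sirt2 in the opposite direction. The weaker summit lay 28 bp upstream of Sirt2, between both starts. The mm9 list repeated the pair with signals of 397 and 139, and GENCODE M1 has a start of Nfkbib 13 bp from the stronger one. So the stronger binding of this promoter was on the Nfkbib side in each list. The region held 5 GGAA cores but no CCGGAA, and 2 copies of CCAAT, the word of NFY, which occurred in 38.5% of all promoters.

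Of the mitochondrial sirtuins, Sirt3, the main mitochondrial deacetylase, had the strongest peak, with a signal of 311 in the optimal list, 138 in replicate 1 and 171 in replicate 2. Its peak at chr7:140882268-140882483 was 216 bp wide, against a width of 364 bp for 86.5% of optimal peaks, and the replicates' summits were 5 bp apart. It lay between 2 genes, with its summit 77 bp upstream of Sirt3 and 8 bp upstream of Psmd13, a subunit of the proteasome's regulatory particle, whose start is 85 bp from that of Sirt3 and points away from it. The mm9 summit had a signal of 551, ranked 987, and lay 67 bp upstream of Sirt3. A second RefSeq start of Sirt3, 440 bp downstream, had no summit of its own, the nearest being the same one at 517 bp.

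Sirt4, known as a mitochondrial ADP-ribosyltransferase and lipoamidase that restrains glutamine use, had a signal of 129 in the optimal list, 43.2 in replicate 1 and 85 in replicate 2. This peak spanned chr5:115484279-115484642 and its summit lay 164 bp upstream of the inner Sirt4 start and 11 bp inside the long non-coding RNA gene Gm42007, which starts 153 bp from Sirt4 and runs the other way. The mm9 list had a summit with a signal of 179 at 191 bp upstream of the same start. At the outer start, the strongest entries of each replicate held weak summits that the optimal list lacked, with a signal of 16.5 at 246 bp downstream in replicate 1 and 14.9 at 661 bp downstream in replicate 2. Among the promoter summits of Sirt4, the one at the inner start was thus the one that all lists had.

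Sirt5, which removes succinyl, malonyl and glutaryl groups in mitochondria, had the weakest promoter peak of the bound members. Its signal was 32.4 in the optimal list, 11 in replicate 1 and 23 in replicate 2, below the median of 39.7 over all optimal peaks. The summit lay 147 bp downstream of the start at 43365535, in a peak at chr13:43365500-43365863, and the replicates' summits were 23 bp apart. The mm9 list had no summit within 20 kb of any Sirt5 start. Of the 7 genes, Sirt5 was the one for which the optimal list, taken at any RefSeq start, and the mm9 list gave opposite answers at the promoter.

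**Figure D1:**
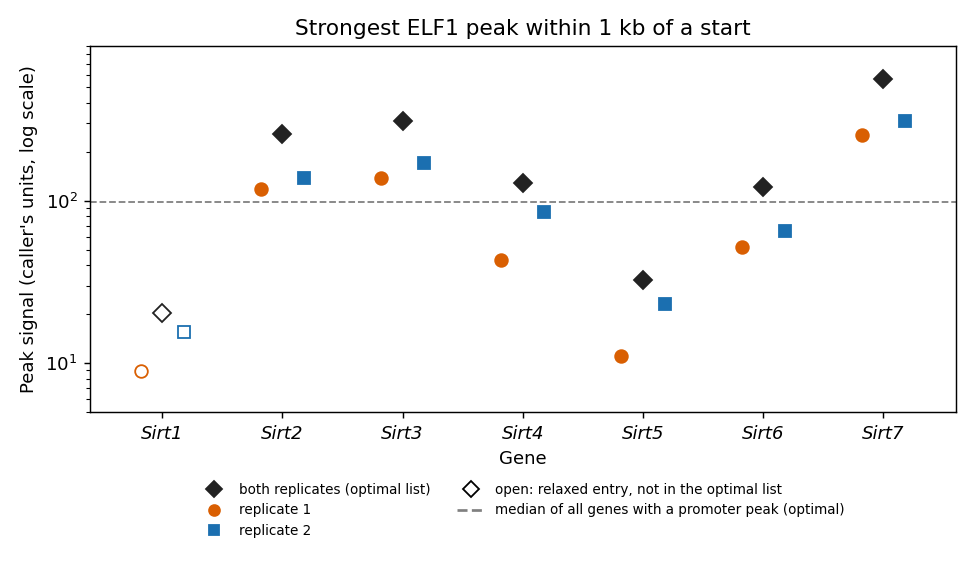
Signal of the strongest ELF1 summit within 1 kb of a start (log scale, the caller's units) for each sirtuin gene, with diamonds for the optimal list, circles for replicate 1 and squares for replicate 2. Open symbols at Sirt1 are relaxed entries outside the optimal list, and the dashed line is the median of 97.6 over the 9100 genes with an optimal promoter peak; Sirt7 stands highest and Sirt5 lowest among the bound genes.

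In order of promoter signal the genes ran Sirt7, Sirt3, Sirt2, Sirt4, Sirt6 and Sirt5 in the optimal list and in replicate 2. In replicate 1 Sirt6 (52) stood above Sirt4 (43.2), so the order of these neighbours, at 121 and 129 in the optimal list, was not fixed by the replicates. All the other genes kept their place in both replicates. The ratio of the replicate 2 to the replicate 1 signal was 1.16 at Sirt2, 1.21 at Sirt7, 1.24 at Sirt3 and 1.25 at Sirt6, near the median of 1.28 over 7567 promoter peaks found in both replicates. It was 1.97 at Sirt4 and 2.1 at Sirt5, higher but within the range from 0.773 to 2.58 that held the 5th to 95th percentile of those peaks. Summit gaps between replicates ran from 0 bp at Sirt6 to 30 bp at Sirt4, against a median of 15 bp.

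Taking the strongest 29086 entries of each replicate as its own list, 6 of 7 sirtuin genes had a promoter summit in replicate 1, against 43.1% of all genes, and 7 of 7 in replicate 2, against 43.6%. The extra gene in replicate 2 was Sirt1, with the weak entry described above. In the mm9 list with every GENCODE M1 transcript start, 5 of 7 sirtuin genes had a promoter summit, against 36.8% of 22367 genes, and the exceptions were Sirt1 and Sirt5. No test was made of these counts, which come from 7 genes chosen by name.

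**Figure D2:**
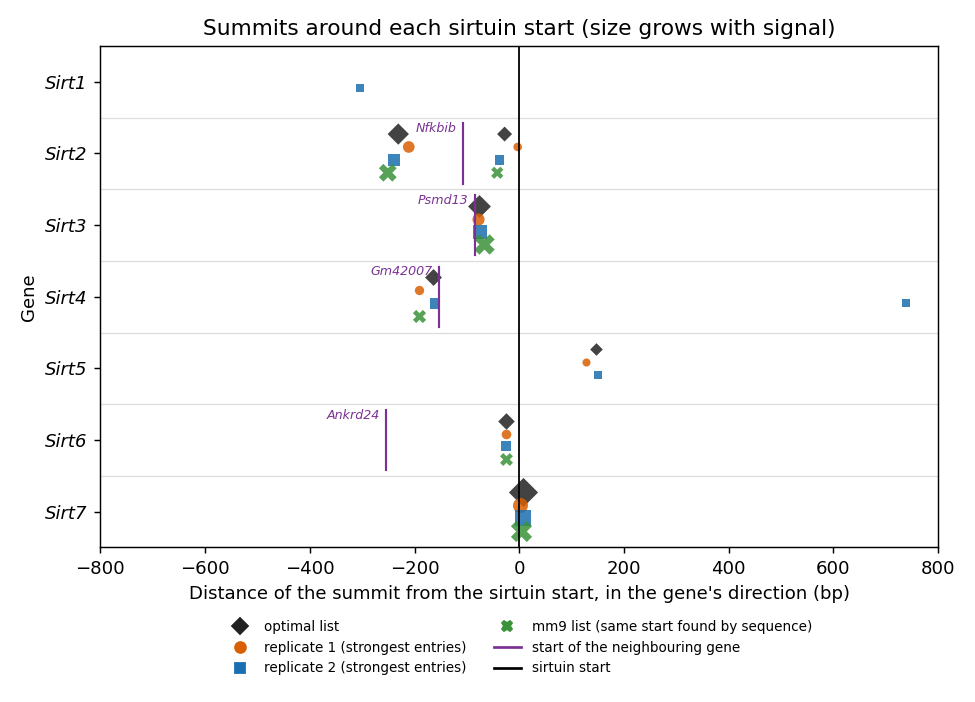
Position of each summit relative to the sirtuin start (horizontal axis, bp in the direction of the gene) in the optimal list, the strongest entries of each replicate and the mm9 list, with marker size growing with signal. Purple lines are the starts of neighbouring genes on the opposite strand; the Sirt6 summits coincide, and the stronger Sirt2 summits lie beyond the Nfkbib start.

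Neighbouring starts were common in this family. Another gene's start lay within 1 kb of one of theirs for 4 of 7 sirtuin genes (57.1%), namely Sirt2, Sirt3, Sirt4 and Sirt6, against 19.8% of all 21317 placed genes, and all 4 pairs were head to head. All 4 of these sirtuin genes had a promoter peak, against 71.8% of all genes with such a neighbour. Of the sirtuin genes without one, Sirt5 and Sirt7 had a peak and Sirt1 had none, against 35.5% with a peak among all genes without a neighbour. At a shared promoter the gene that a peak serves cannot be told apart from its neighbour with these data.

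Within 20 kb of any start, 6 of 7 sirtuin genes had an optimal summit, against 60.5% of all genes, and Sirt1 was again the exception. The optimal list held 19 such summits, 7 in promoters and 12 farther out, and the relaxed replicate lists cut to the same length held 21 and 22. The farthest promoter summit lay 231 bp from a start and the nearest one outside the limit of 1 kb was 1071 bp from one, at Sirt6. Sirt3 and Sirt5 had nothing but their promoter summits, while Sirt7 had 7 summits in all.

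**Figure D3:**
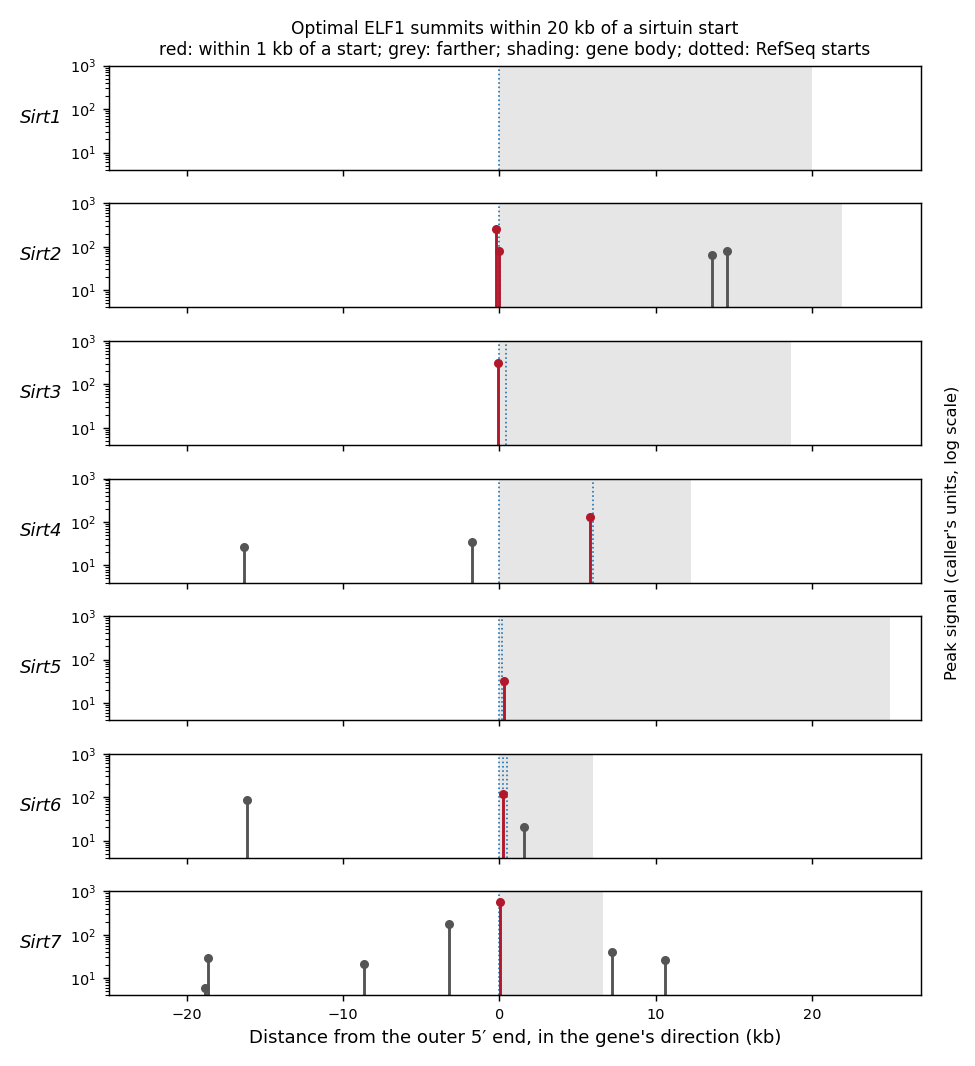
Optimal ELF1 summits around each sirtuin gene, by distance from the outer 5′ end (kb, in the direction of the gene) and signal (log scale, the caller's units). Red stems are within 1 kb of a RefSeq start and grey stems farther; Sirt1 has none, and the Sirt4 promoter summit lies at the inner start.

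Many of the farther summits lay in or beside other genes. At Sirt7 the strongest of the 6 had a signal of 177 in the optimal list, 84 in replicate 1 and 94.3 in replicate 2, 3199 bp upstream of the Sirt7 start and inside Mafg, which encodes a small Maf transcription factor. In mm9 the summit of 290 in this neighbourhood fell in a Mafg UTR, 2990 bp upstream of a Sirt7 start. The other 5 had optimal signals of 5.95 to 39.8. Of these, the one of 39.8 lay 137 bp from the start of Pcyt2, an enzyme of phosphatidylethanolamine synthesis, and the one of 26.2 lay inside the same gene. Those of 28.8 and 5.95 lay 100 and 99 bp from starts of Pycr1, an enzyme of proline synthesis, and the one of 21 lay 58 bp from the predicted gene Gm17586. For the summit of 5.95, neither relaxed replicate list had a summit closer than 100 bp, although a replicate 1 peak with a signal of 13.2 covered its position.

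Sirt2 had 2 summits inside its gene body, 13597 and 14576 bp from its start. The first had a signal of 65.7 in the optimal list, 18.1 in replicate 1 and 51.1 in replicate 2. The second had 77.6, 43.7 and 36.3 in the same lists and lay 186 bp from the predicted gene Gm19897. Which of both was the stronger therefore depended on the replicate. The mm9 list had 2 summits in Sirt2 introns, with signals of 91.7 and 97.5, and 4 more at or inside Rinl, the strongest of them, 221 each, in Rinl coding exons. The summits at Rinl were counted from GENCODE M1 transcript starts inside Sirt2.

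Sirt6 had a weak summit of 20 in the optimal list, 1071 bp downstream of its innermost start, with 6.55 in replicate 1 and 14.2 in replicate 2, and the conservative list lacked it. A stronger one of 87.3, with 33.7 in replicate 1 and 52.5 in replicate 2, lay 16136 bp upstream, inside Ankrd24. The nearest RefSeq start was that of the predicted gene Gm10778, 5141 bp away. In mm9 a summit of 105, 16119 bp upstream of a Sirt6 start, lay 113 bp from a GENCODE M1 start of Ankrd24. Sirt4 had a summit of 34.1 that lay 1783 bp upstream of its outer end and 77 bp from a start of Pxn, which encodes the focal adhesion protein paxillin. Its other summit, 27.1 in the optimal list, lay 16348 bp upstream, inside Pxn with the predicted gene Gm13840 as the nearest start. Within 100 bp of that summit replicate 2 had an entry of 23.9 and replicate 1 had none. Both farther summits of Sirt4 thus lay inside Pxn.

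In the mm9 list, 6 of 7 sirtuin genes had a summit within 20 kb of a GENCODE M1 start, against 54.9% of all genes, and here the exception was Sirt5 and not Sirt1. The summit counted for Sirt1 had a signal of 353, ranked 1837, and lay 1095 bp from the start of 1 annotated Sirt1 transcript that spans 62700 bp. It also lay 356 bp from the start of Dnajc12, a J-domain co-chaperone gene in whose intron it fell, and 43764 bp from the start with the sequence of the RefSeq Sirt1 start. The Dnajc12 promoter had an optimal signal of 214 on mm10. The mm9 count for Sirt1 thus came from the annotation of 1 long transcript.

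Letters could be searched around summits in mm9, for which a genome of the same build was at hand. Within 50 bp of the summit, 4 of 6 sirtuin promoter summits (66.7%) held CCGGAA, against 37.4% of 8790 promoter summits, and these were the summits of Sirt3, Sirt4, Sirt6 and Sirt7. The word's centre lay 6 bp from the summit at Sirt6, 15 bp at Sirt3, 19 bp at Sirt7 and 34 bp at Sirt4. At Sirt4 the 50 bp to each side of the optimal mm10 summit held no CCGGAA. Both Sirt2 summits lacked it. The full CCGGAAGT stood at 2 of 6, those of Sirt3 and Sirt6, against 11.6% of all promoter summits. The core GGAA stood at 5 of 6 (83.3%), against 90.6%, and the one without it was the weaker Sirt2 summit. Of the words of other factors, GCGCATGC of NRF1 was found in the promoter sequences of Sirt6, as 2 overlapping matches on opposite strands, and Sirt7, against 3.54% of all promoters. TGACGTCA of CREB and ATF, AAGATGGC of YY1 and TATAAA were in none of the sirtuin promoter sequences, against 2.26%, 3.07% and 12.7% of all promoters. Among promoters with an optimal peak, GCGCATGC occurred in 6.43%, TGACGTCA in 3.77%, AAGATGGC in 5.51% and TATAAA in 5.68%. With so few sirtuin sequences, these absences say little.

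The strength of the sirtuin peaks was set beside genes that work with NAD, the cosubstrate of sirtuins, and beside the zinc-dependent deacetylases, the other family that removes acetyl groups from lysines. Of 31 placed NAD metabolism genes, 16 had an optimal promoter summit at any start (51.6%, against 42.7% of all genes). At the outer end 14 of the 31 had one, against 39.5% of all genes. The strongest were at Nadsyn1 (526), the NAD synthetase, Parp3 (378) and Tnks (363), which consume NAD to modify proteins, Nnt (227), the mitochondrial transhydrogenase, and Parp2 (221). Nadsyn1 tied in signal and rank with Dhcr7, and Parp3 with Rrp9, as genes that share a peak do. At these the gene that the peak serves cannot be told apart from the other. The median over the 16 was 76.5, against 97.6 over all genes with a peak.

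By step of the pathway, the counts are to be read against the 42.7% of all genes. Of 9 genes of tryptophan breakdown, from which NAD can be made, 2 had a promoter peak at any start, Afmid (43.9) and Haao (38.8). The others, Tdo2, Ido1, Ido2, Kmo, Kynu, Acmsd and Qprt, had none. Of the genes of synthesis from vitamin precursors 5 of 8 had one, with Nmrk1 (170), Nmnat1 (115), Nmnat3 (72.4) and Nampt (32.8) beside Nadsyn1, and Naprt, Nmnat2 and Nmrk2 had none. Nampt encodes the rate-limiting enzyme of NAD salvage. Within 100 bp of its optimal summit replicate 2 had an entry of 17.1 and replicate 1 had none. Of the consumers 6 of 8 had one, including Sarm1 (61.7), Tnks2 (55) and Parp1 (37.2), and the ectoenzyme genes Cd38 and Bst1 had none. Among the rest, Nadk (80.5) and Slc25a51 (51.2), the mitochondrial NAD carrier, had one beside Nnt, and Nnmt, Pnp and Aox1 had none. Nadk2, also on the list, got no strand and was not counted. These steps were not tested against each other.

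Of the 11 zinc-dependent deacetylase genes, 8 had a promoter peak at any start (72.7%, against 42.7% of all genes). At the outer end 7 of the 11 had one, against 39.5% of all genes. The strongest were Hdac10 (217), a polyamine deacetylase, and the nuclear Hdac1 (158) and Hdac3 (75.2). Hdac7 (49.2), Hdac6 (35), Hdac5 (32.7), Hdac2 (29.5) and Hdac8 (28.4) were lower, and Hdac4, Hdac9 and Hdac11 had no peak. The median of 42.1 over the 8 and their highest signal were both below those of the sirtuins, a description of named lists without a test.

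**Figure D4:**
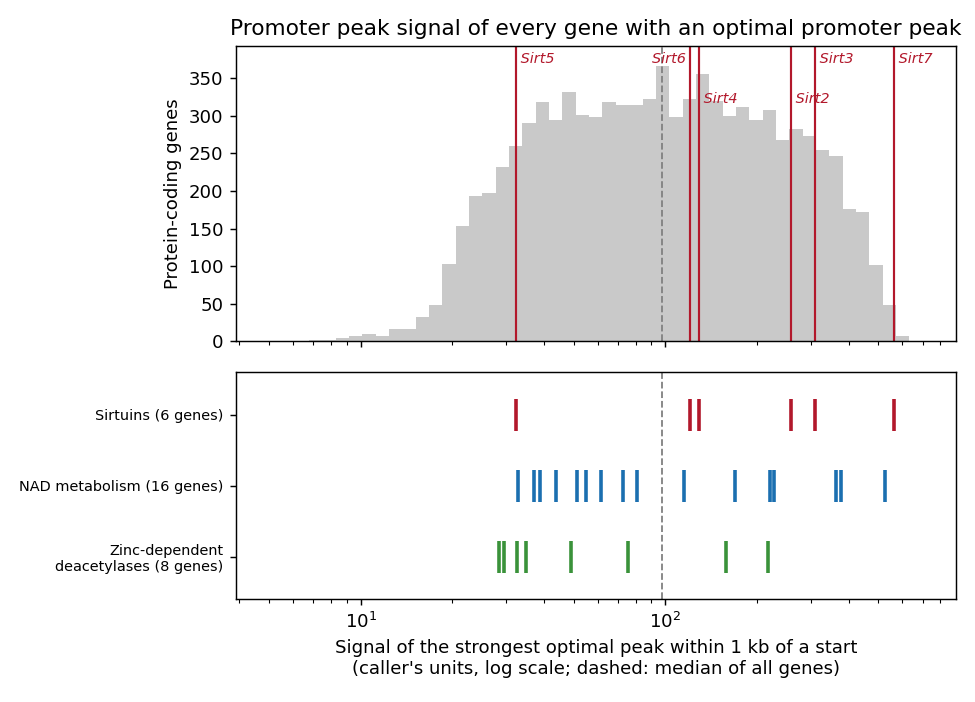
Top, number of protein-coding genes by signal of their strongest optimal promoter peak (log scale, the caller's units; 9100 genes), with red lines at the 6 bound sirtuin genes. Bottom, the same signal for each bound gene of the sirtuin, NAD metabolism and zinc-dependent deacetylase lists, with the dashed line at the median of 97.6; Sirt7 lies in the far right tail.

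Genes were ranked by the single value of promoter signal in the optimal list. Psmd13 tied with Sirt3 and Nfkbib with Sirt2, as genes that share a peak do. A tie also held at Sirt6, which ranked 3860 with the next gene below at 3862. Apart from ties, the genes next to each sirtuin were Sec31a (565) and Tfg (560) around Sirt7, both of transport out of the endoplasmic reticulum. Fbl and Smg9 stood around Sirt3 (311 each) and Zdhhc7 and Snrpd1 around Sirt2 (258 each). Cox7a1 and Eloc stood around Sirt4 (129 each), Wtap and Lsm1 around Sirt6 (121 each), and Cd86 (32.4) and Ticam2 (32.3) around Sirt5. This likeness rests on 1 value per gene and says nothing beyond the rank.

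As a check of the cell line, the B cell markers Cd79a, Cd79b, Ms4a1, Cd37 and Blk each had an optimal promoter peak at any start and 0 of 9 markers of T cells, hepatocytes and erythroid cells had one, against 42.7% of all genes. The lists hold no read counts, so the depth behind each signal is unknown and no interval is given.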

How the data were processed

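Peak lists were deposited as narrowPeak files. Per the deposited README text, each replicate's relaxed list came from its mm10 alignments and a control, and the optimal and conservative lists from the relaxed lists by the irreproducible discovery rate, a measure of how well peaks repeat. The mm9 list came from both replicates' mm9 alignments. Which aligner and peak caller were run is not given in the sources used here. The deposited signal (column 7) is the authors' value per peak on a scale that differs between lists, so it ranked peaks within a list. Column 10 gave the summit.

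The sirtuin genes, the 32 NAD metabolism and 11 zinc-dependent deacetylase genes were chosen with earlier results of these data known. Genes named are the sirtuins, genes starting within 1 kb of their starts or promoter summits, the nearest start of each farther peak and all members of both lists. Also named are genes tied in signal with the strongest NAD metabolism genes, the genes ranked next to each sirtuin and a few cell type markers. Genes, starts and promoter sequences on mm10 came from RefSeq GRCm38.p6. Strand came from the promoter table (17274 genes) or from GENCODE M1 by symbol (3649) or synonym (394), and 583 of 21900 genes were not used here. For mm9, GENCODE M1 starts and the NCBIM37 genome were used. A RefSeq start was found in mm9 by its own promoter sequence, and no coordinates were converted. Each relaxed list was cut to its 29086 strongest entries, and summits within 100 bp counted as shared. The planned count used 1 outer 5′ end per gene. Counting any RefSeq start was added after the data were seen. One item of the cell type marker list is not reported here. The counting of summits by distance was tested on simulated data, and that test did not cover the overlap of peak intervals. Both replicates come from 1 line in 1 group, so no test between samples was made. Python 3.11.15, pandas 2.3.3, numpy 2.4.6 and matplotlib 3.10.9 were used.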

Additional observations from a re-analysis of the deposited data

How the results depend on the processing

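The count of sirtuin genes with a promoter peak from the outer 5′ end was 5 of 7, against 39.5% of all genes. It was 5 within 500 bp, 5 in the conservative list and 5 by overlap of the peak interval. Among optimal peaks above the median signal it was 4 (Sirt5 dropped out). Within 2 kb it was 6, where Sirt4 came in through a summit 77 bp from a start of Pxn. With any RefSeq start it was 6, against 42.7% of all genes, and in mm9 it was 5, against 36.8%. With 1 replicate's own list the count was 6 without replicate 2, where Sirt4 came in. It was 7 without replicate 1, where Sirt1 and Sirt4 came in. Each replicate's list held a weak entry at the outer Sirt4 start, with a signal of 16.5 in replicate 1 and 14.9 in replicate 2. Shares of all genes are given only for the main, any-start and mm9 counts, so the rest are not set against a background. Of 34 alternative counts over the gene lists, the 20 kb reach and the summit words, 33 stayed within 1.5 times the main count. The exception was the ETS word at mm9 summits, 4 of 6 with CCGGAA and 2 with CCGGAAGT. The sirtuin gene counts could not pass this limit upward, since 7 of 7 is within 1.5 times a main count of 5 or 6. On that side the outcome for these counts was fixed in advance. Of 18 alternative percentiles of promoter peaks, 12 moved by at most 1 SD of the replicates' own percentiles and 6 by more. That SD comes from the same replicate lists, so this is a description. The largest move was at Sirt5, at 39.1 in the optimal list, 13.2 in replicate 1 and 47.3 in replicate 2. The conservative list held summits near Sirt4 that the optimal list lacked, so it was no subset there. No paired analysis was possible because there was 1 group. Depth is unknown, and a peak missing from a list, as at Sirt1, may be a weak one.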

Other observations

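The word TTGTAGT was noticed in the printed sequences and searched afterwards. It stands 2 times in the Sirt2 promoter sequence, at -66 to -60 and at 3 to 9 counted from 0 at the start, and once in that of Sirt4, at -131 to -125. It occurred in 5.09% of RefSeq promoters with an optimal peak and in 2.61% of those without. Among promoters with a peak the share was 5% with CCGGAA and 5.14% without it. Within 50 bp of mm9 promoter summits it occurred in 2.07% of those with CCGGAA and in 3% of those without. No test was made of these shares, since the word was chosen from the sirtuin sequences.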
